A study of Mus musculus with 13 samples.

Results

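The nuclear genes of the mitochondrial respiratory chain were followed in mouse embryonic stem cells (ESC) and in the cells that differentiate from them. Members were all probe sets, other than the array's own controls, that the platform annotation gave to exactly 1 gene symbol beginning with Nduf (complex I), Sdha to Sdhd (complex II), Uqcr (complex III), Cox followed by a digit from 4 to 8 (complex IV) or Atp5 (complex V). They were 179 of 45037 probe sets and 90 of 18193 genes. Complex I had 88 probe sets for 44 genes, complex II 9 for 4, complex III 16 for 8, complex IV 35 for 17 and complex V 31 for 17. The complex I members included 10 probe sets for 8 Ndufaf genes, whose products help to build the complex and are not part of it.

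The ESC carried a green fluorescent reporter of Stella, the protein of the Dppa3 gene, and cells were sorted on that reporter. There were 5 groups on 13 arrays: Stella-positive cells of embryoid bodies at day 7 (4 arrays), Stella-negative cells of such bodies at day 7 (2 arrays), unsorted ESC (2 arrays), Stella-positive ESC (2 arrays) and Stella-negative ESC (3 arrays). Embryoid bodies are aggregates in which ESC differentiate in culture. The labels call the Stella-positive day 7 cells primordial germ cells made in vitro and the Stella-negative day 7 cells not germ cells. The labels name Stella for all 5 groups, the unsorted ESC included, and do not say whether they come from 1 line. The array header of 1 Stella-positive ESC array describes it as BAC GFP+, a label that its title does not carry. Beyond that label, the sources used here do not give how the reporter was built. Nor do they say whether arrays of 1 group came from separate cultures. A p-value here therefore sets a difference against the scatter of arrays within a group, and that scatter may be technical.

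The respiratory chain passes electrons from NADH (complex I) and succinate (complex II) through complexes III and IV to oxygen, and the proton gradient so formed drives ATP synthesis by complex V. Most subunits are encoded in the nucleus, and a small core set is encoded by mitochondrial DNA and was not among the members. Some complex IV subunits exist as isoforms typical of heart and skeletal muscle or of testis. The membrane ring of complex V is built from subunit c, for which 3 nuclear genes, Atp5g1, Atp5g2 and Atp5g3, encode the same mature protein behind different import sequences.

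The promoters of those 3 genes are shown because Atp5g1 and Atp5g2 were called between the day 7 sorts and Atp5g3 was not, a difference between genes that was not itself tested. Each sequence runs from 250 bases before to 50 bases after the RefSeq transcription start (build GRCm38.p6) and is written 5′ to 3′ on the gene's own strand, which is the minus strand for all 3. Capitals mark a match to CGCANGCG, the core of the motif of nuclear respiratory factor 1 (NRF1), searched on both strands. Atp5g1 lies at chr11:96075582-96075881, Atp5g2 at chr15:102670998-102671297 and Atp5g3 at chr2:73911277-73911576.
Atp5g1: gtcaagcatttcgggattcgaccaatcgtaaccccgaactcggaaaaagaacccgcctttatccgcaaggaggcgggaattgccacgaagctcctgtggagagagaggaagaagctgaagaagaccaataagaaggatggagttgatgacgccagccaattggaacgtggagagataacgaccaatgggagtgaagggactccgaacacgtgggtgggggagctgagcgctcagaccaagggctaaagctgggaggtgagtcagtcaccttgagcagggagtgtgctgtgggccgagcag
Atp5g2: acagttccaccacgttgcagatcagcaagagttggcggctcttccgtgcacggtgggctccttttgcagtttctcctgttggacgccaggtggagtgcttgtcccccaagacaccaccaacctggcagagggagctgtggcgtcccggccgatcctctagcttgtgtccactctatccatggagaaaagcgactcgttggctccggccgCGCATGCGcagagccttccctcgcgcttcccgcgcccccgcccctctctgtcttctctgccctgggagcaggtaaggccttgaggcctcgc
Atp5g3: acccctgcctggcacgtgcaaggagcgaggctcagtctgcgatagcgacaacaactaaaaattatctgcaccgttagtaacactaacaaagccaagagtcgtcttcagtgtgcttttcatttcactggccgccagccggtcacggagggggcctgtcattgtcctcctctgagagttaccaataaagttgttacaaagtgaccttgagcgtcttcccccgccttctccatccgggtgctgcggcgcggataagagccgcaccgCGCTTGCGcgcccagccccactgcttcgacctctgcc
The window of Atp5g1 held no match to the motif, and those of Atp5g2 and Atp5g3 held 1 each. A match is a description of these letters only.

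Values are MAS5 signal intensities, scaled to a common mean for each array, and are called scaled signal here. Differences are in log2 units after a constant of 10.5 was added, each with its standard error from limma, and a call is a limma p of under 0.05 after Benjamini-Hochberg adjustment over all 30023 probe sets bright enough to be tested. Of the 179 members, 163 were tested, covering 88 genes. The 16 others averaged between 3.99 and 18.6 in scaled signal over the 13 arrays, and they included the sole probe sets of Cox8b, the heart and muscle isoform of subunit 8, and of Cox7b2, a testis isoform. As these are bulk samples, fewer cells of a type and less RNA per cell cannot be told apart.

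Some features of the arrays touch these results. Before scaling, the arrays differed 27.1-fold in their trimmed mean, and the dimmest was Stella-positive day 7 array 4. The ratio of 3′ to 5′ actin probe sets, a sign of RNA integrity and labelling, was 2.04 to 5.16 in Stella-positive day 7 cells, 5.48 and 5.85 in Stella-negative day 7 cells and 1.12 to 1.23 on all ESC arrays. The day 7 arrays and the ESC arrays were hybridised on different days and on chips of different lots, so that culture cannot be told apart from day or lot. The 2 unsorted ESC arrays formed a run of their own, so that run and group cannot be told apart there either. Stella-positive ESC array 2 was alone in its run, day and chip lot. Stella-positive ESC array 1 shared run, day and lot with the Stella-negative ESC arrays. Dppa3 was higher in Stella-positive than in Stella-negative cells at day 7 by 3.26 ± 0.26 and in ESC by 2.51 ± 0.27 (log2, adjusted p = 4.06e-06 and 0.00168 by limma), as the labels have it. Of 6 cardiac and muscle marker genes, all 6 were lower in Stella-positive than in Stella-negative day 7 cells, with summed scaled signals of 167 to 1266 in Stella-positive and 3244 to 3562 in Stella-negative cells. Of 6 endoderm genes, all 6 were likewise lower, with sums of 265 to 7292 in Stella-positive and 19071 to 20384 in Stella-negative cells. The sums of 4 blood genes were 62.6 to 364 in Stella-positive and 4110.1 to 4237 in Stella-negative cells, and 3 of the 4 genes were lower.

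Respiratory chain transcripts were among the brightest on every array. The median of the 163 tested members lay between the 95.6th and the 96.9th percentile of all probe sets on each of the 13 arrays. The members' median scaled signal was 857 to 1019 in Stella-positive day 7 cells and 696 and 726 in Stella-negative day 7 cells. In ESC it was 755 and 773 in unsorted cells, 892 and 973 in Stella-positive cells and 855 to 1006 in Stella-negative cells. By this median the Stella-negative day 7 arrays were the lowest of the 13, followed by the unsorted ESC arrays. By percentile the unsorted ESC arrays were the lowest, at 95.6 and 95.7, against 95.8 and 96.1 in Stella-negative day 7 cells. The share of all 179 members in the total signal was 2.29 to 2.68% in Stella-positive day 7 cells. It was 2.41 to 2.44% in Stella-negative day 7 cells and 2.30 to 2.74% on the ESC arrays. Arrays of 1 group correlated between 0.963 and 0.992 over the members on the log2 scale, a description over genes that are not independent replicates.

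At day 7, respiratory chain members were far more often higher than lower in the Stella-positive cells, in complexes I, IV and V. Of the 163 members tested, 45 (27.6%) were higher and 3 (1.84%) were lower, where 8.54% and 7.87% of all probe sets were higher and lower. The members' median difference was 0.28 and that of all probe sets was -0.12. Complex I had 24 members higher and 2 lower, complex IV 9 and 1, complex V 9 and 0, and complex II 2 and 0, both of them probe sets of Sdhc. Complex III had 1 of 16 higher (6.25%) and 0 lower, near the share over all probe sets. The medians by complex ran from 0.10 in complex III to 0.36 in complex I. Quantile normalization, which moved the median of all probe sets to 0.002, gave 34 higher (20.9%) and 11 lower (6.75%), against 10.3% and 7.82% of all probe sets. Then 75.6% of the calls were higher in place of 93.8%, and the members' median of 0.21 stayed above that of all probe sets. On 68 members (41.7%) every Stella-positive array lay above both Stella-negative arrays, and on 14 (8.59%) every one lay below, against 16.3% and 21.4% of all probe sets.

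**Figure D1:**
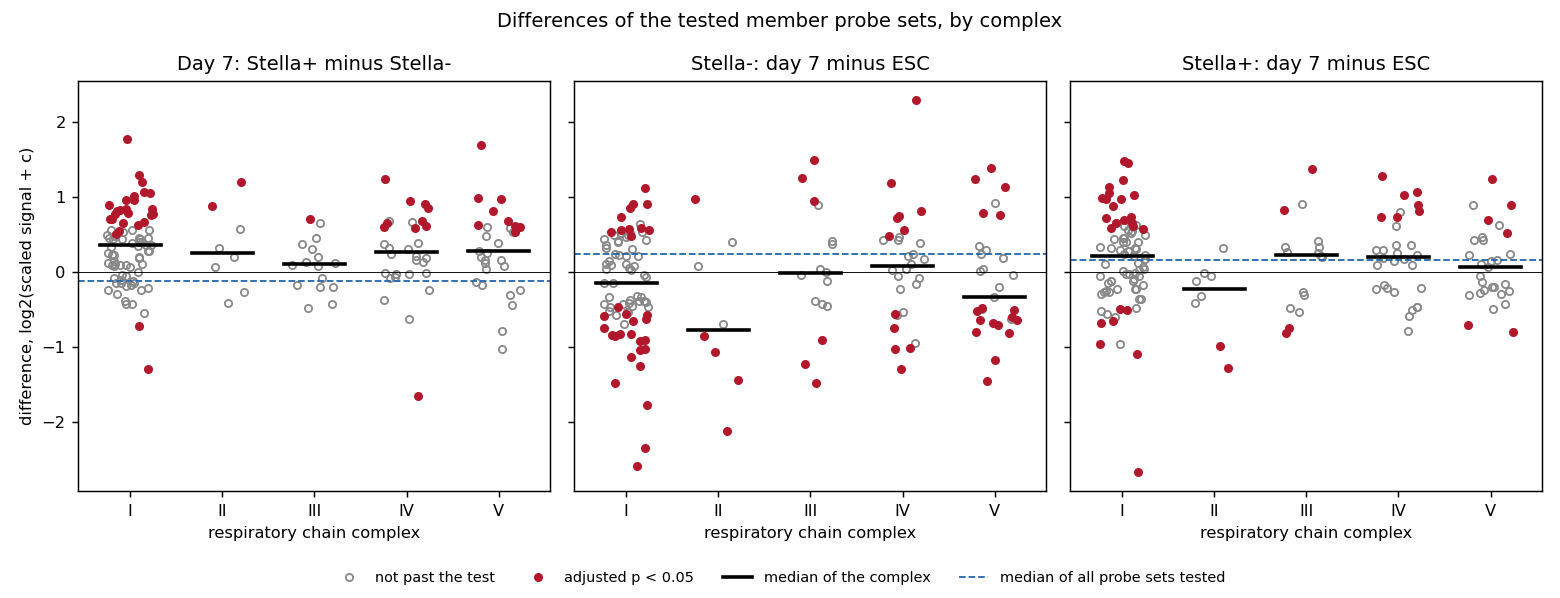
Log2 difference of each of the 163 tested members (points), by complex on the horizontal axis, for Stella-positive minus Stella-negative day 7 cells and for day 7 cells minus ESC within the Stella-negative and the Stella-positive sort. Red points passed the limma test, black lines are medians of a complex and the blue dashed line is the median of all 30023 probe sets; in the day 7 sort the medians of all 5 complexes lie above the blue line.

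The number of calls depends on both Stella-negative day 7 arrays. Without Stella-negative array 1, 12 members were higher and 0 lower, against 2.79% and 1.20% of all probe sets. Without array 2, 17 were higher and 1 lower, against 4.18% and 1.88%. The members' median stood at 0.28 without array 1 and at 0.27 without array 2. A single hybridisation run held both day 7 groups, with 3 Stella-positive arrays and 1 Stella-negative array, the lone one assumed to vary like the other groups. With run as a term in the fit, 15 members were higher and 1 lower, against 3.71% and 2.08% of all probe sets. With the 3′ to 5′ ratio of Gapdh as a covariate, 17 were higher (10.4%) and 4 lower (2.45%), against 6.96% and 9.39% of all probe sets. With that ratio, 12 of the 48 calls were kept. That ratio was 1.23 to 2.09 in Stella-positive and 3.03 and 3.18 in Stella-negative day 7 cells; its part in the result was not tested.

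Within complex I, the calls spread over the NADH-oxidising arm, the membrane arm and the assembly factors. Ndufb10, an accessory subunit of the membrane arm, measured 557, 512, 742 and 531 in Stella-positive day 7 cells and 229.8 and 230.4 in Stella-negative day 7 cells. The groups did not overlap, and the difference was 1.29 ± 0.21 (log2, limma adjusted p = 0.000729). Ndufb10 kept its call under all 21 alternative settings of the analysis, with adjusted p between 0.000525 and 0.0292. Ndufv1 carries the NADH binding site and the flavin of complex I. Its brightest probe set measured 807, 1078, 1083 and 963 in Stella-positive and 482 and 514 in Stella-negative cells, a difference of 0.96 ± 0.18 (adjusted p = 0.00258), and all 3 of its probe sets were higher. Ndufv2, an iron-sulfur subunit that sits beside Ndufv1, measured 1973, 2009, 2593 and 3255 in Stella-positive and 1131 and 967 in Stella-negative cells. It was higher by 1.19 ± 0.23 (adjusted p = 0.00233) and kept its call under all 21 alternatives, with adjusted p up to 0.0478.

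Of the 10 Ndufaf probe sets, 3 were higher and 0 lower, with a median of 0.48 and a lowest difference of -0.21 (Ndufaf4). Ndufaf6, needed for the biogenesis of complex I, measured 112, 131, 129.5 and 142 in Stella-positive cells and 55.7 and 14.6 in Stella-negative cells. The 2 Stella-negative arrays differed more from each other than the 4 Stella-positive ones did, and both were lower. The difference was 1.77 ± 0.33 (adjusted p = 0.00203). Ndufs4, whose loss impairs complex I in patients and mice, was higher by 0.84 ± 0.20 in its brightest probe set (adjusted p = 0.00886), and a dimmer one stood at -0.05 ± 0.40 (adjusted p = 0.942). Ndufa8, an accessory subunit, measured 507, 504, 530.0 and 443 in Stella-positive and 263 and 282 in Stella-negative cells, 0.84 ± 0.17 higher (adjusted p = 0.00347).

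The 2 complex I members that were lower are both proteins with a further role. Ndufa4 was named as a complex I subunit and was later assigned to complex IV. It measured 1409, 1643, 1328 and 872 in Stella-positive cells against 2234 and 2025 in Stella-negative cells. All 4 were below both, with a log2 difference of -0.73 ± 0.22 (limma adjusted p = 0.0302), but without Stella-positive arrays 3 and 4 the difference of -0.48 did not pass the test (adjusted p = 0.07). Ndufab1 is the mitochondrial acyl carrier protein as well as a subunit of complex I. One of its probe sets was lower, at -1.30 ± 0.27 (adjusted p = 0.00408), while the brightest stood at 0.20 ± 0.20 (adjusted p = 0.533). The paralogue Ndufa4l2, which low oxygen induces in other cells, did not pass the test at day 7 (-0.30 ± 0.50, adjusted p = 0.728).

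In complex II, which also works in the citric acid cycle, 1 of the 4 subunits passed the test. Sdhc, a membrane anchor, measured 579, 719.5, 692 and 516 in Stella-positive and 333 and 334 in Stella-negative cells in its brightest probe set, 0.88 ± 0.19 higher (limma adjusted p = 0.00534). Its other probe set was higher by 1.19 ± 0.19 (adjusted p = 0.00057). Both probe sets thus separated the day 7 groups. The flavin subunit Sdha stood at 0.57 ± 0.21 (adjusted p = 0.0743), the iron-sulfur subunit Sdhb at 0.06 ± 0.17 (adjusted p = 0.85) and the second anchor Sdhd at 0.32 ± 0.24 (adjusted p = 0.389), none past the test.

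In complex III, Uqcrc1 passed. It is one of the core proteins on the matrix side, and it measured 1069, 1162, 1296 and 1253 in Stella-positive and 679 and 781 in Stella-negative day 7 cells. The groups were apart by 0.70 ± 0.17 (adjusted p = 0.0104). The other core protein, Uqcrc2, stood at -0.21 ± 0.22 in its brightest probe set (adjusted p = 0.55).

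In complex IV, isoforms of 1 subunit can be set side by side. The subunit 4 isoform of most tissues, Cox4i1, measured 5337, 5768, 6614 and 5102 in Stella-positive and 2871 and 3197 in Stella-negative day 7 cells, 0.90 ± 0.17 higher (limma adjusted p = 0.00212). The lung isoform Cox4i2 was dim, with a mean of 60.1 ± 29.1 (SD, n = 4) and 34.7 ± 23.7 (SD, n = 2), and its groups overlapped (0.67 ± 0.42, adjusted p = 0.293). Cox8a, the isoform of subunit 8 found in most tissues, measured 1821, 1948, 1861 and 1964 in Stella-positive and 1133 and 969 in Stella-negative cells (0.85 ± 0.18, adjusted p = 0.00395). Its other tested probe set was higher as well (0.94 ± 0.19, adjusted p = 0.00313). The testis isoform Cox8c stood at -0.37 ± 0.21 (adjusted p = 0.243). Cox5a, which pairs with subunit 4, was higher in all 3 of its probe sets, by 0.59 to 0.61. The brightest kept its call under 11 of 21 alternatives, and quantile normalization gave 0.12 (adjusted p = 0.462).

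Of the subunit 6a pair, Cox6a1, the isoform of most tissues, was higher in Stella-positive cells by 0.65 ± 0.20 (adjusted p = 0.0342). It kept its call under 10 of 21 alternatives, and quantile normalization gave 0.09 (adjusted p = 0.617). Cox6a2, the heart and skeletal muscle isoform, measured 47, 85.4, 72 and 145 in Stella-positive cells and 261 and 299 in Stella-negative cells. It was lower, at -1.66 ± 0.36 (adjusted p = 0.00536). It kept its call under 18 of 21 alternatives: it did not pass without Stella-negative array 1, without array 2, or with the Gapdh ratio, where it stood at -0.37 (adjusted p = 0.743). The 6 cardiac and muscle markers given above were lower in the same cells, as were the 6 endoderm genes, and a link to Cox6a2 was not tested. The other muscle isoform, Cox7a1, did not follow Cox6a2: it measured 183, 133, 480.0 and 525 in Stella-positive and 132 and 96.2 in Stella-negative cells, and was higher by 1.24 ± 0.41 (adjusted p = 0.049). Its call rests on Stella-positive arrays 3 and 4, the dimmest of the group before scaling, and without them the difference was 0.43 (adjusted p = 0.257). The isoform of most tissues, Cox7a2, did not pass the test in its brightest probe set (-0.07 ± 0.18, adjusted p = 0.831), and of the 3 probe sets of Cox7a2l, which links complexes III and IV into supercomplexes, 1 did (0.68 ± 0.20, adjusted p = 0.0307).

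In complex V, the 3 c-ring genes were measured by separate probe sets. Atp5g1 measured 2040.2, 1888, 1621 and 1639.8 in Stella-positive day 7 cells and 610.3 and 485 in Stella-negative day 7 cells. In ESC it ranged from 977 to 2455, so the Stella-negative day 7 arrays were the lowest of the 13. The difference at day 7 was 1.70 ± 0.27 (limma adjusted p = 0.000647). Atp5g2 measured 3156, 3609.7, 3387 and 2239 in Stella-positive and 1578 and 1483 in Stella-negative cells, 0.99 ± 0.19 higher (adjusted p = 0.00246), and its other tested probe set stood at 0.19 ± 0.51 (adjusted p = 0.833). Atp5g3 measured 5698, 5954, 6838 and 5755 in Stella-positive and 5475 and 6325 in Stella-negative cells. Its groups overlapped, and its difference was 0.04 ± 0.17 (adjusted p = 0.903). The differences between the 3 genes were not themselves tested.

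Some subunits of the catalytic head and of the peripheral stalk were among the calls. Atp5b, the catalytic β subunit, measured 4391, 5325, 4007 and 3714 in Stella-positive and 2309.9 and 2626 in Stella-negative cells (0.81 ± 0.18, adjusted p = 0.00744). Atp5h, subunit d of the stalk that holds the head in place, was higher in both probe sets, by 0.98 ± 0.22 and 0.67 ± 0.17. Atp5a1, the α subunit, stood at 0.47 ± 0.19 (adjusted p = 0.102) and Atp5k, subunit e of the membrane part, at 0.16 ± 0.21 (adjusted p = 0.65), neither past the test. Atp5j2, subunit f, was higher in its brightest probe set (0.60 ± 0.18, adjusted p = 0.0301), while a dim one stood at -1.03 ± 0.49 (adjusted p = 0.16).

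**Figure D2:**
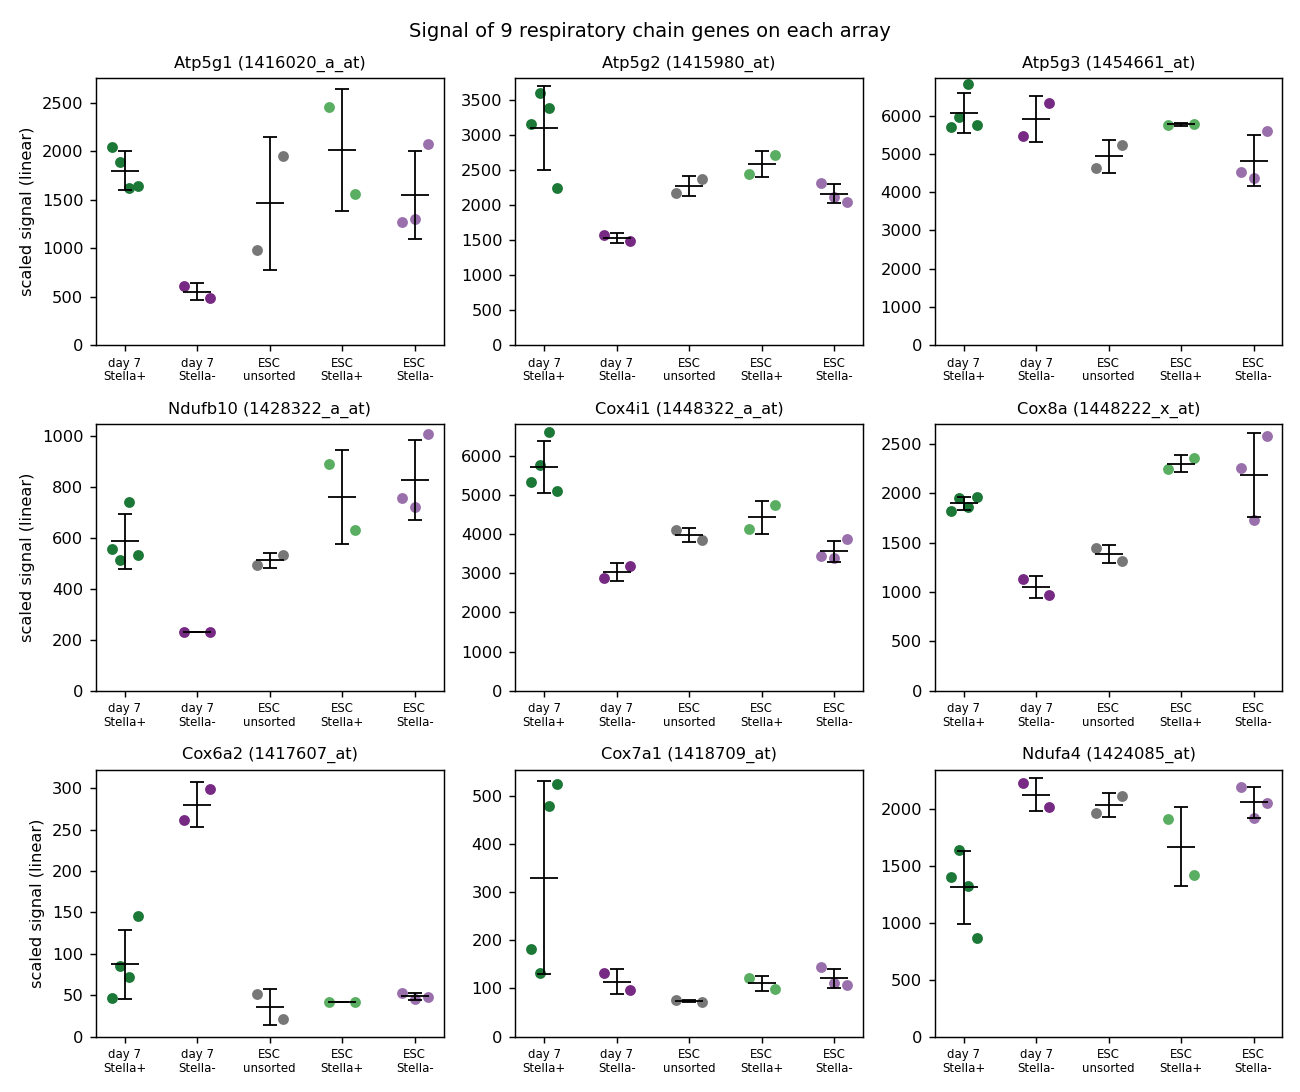
Scaled signal intensity (vertical axes, linear from 0) of 9 members on each of the 13 arrays, by group on the horizontal axes; points are arrays and bars are the mean ± SD. Atp5g1, Atp5g2, Ndufb10, Cox4i1 and Cox8a are lower in Stella-negative than in Stella-positive day 7 cells, Cox6a2 and Ndufa4 are higher there, Atp5g3 overlaps, and 2 of the 4 Stella-positive arrays set Cox7a1 apart.

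Genes around the chain were described from 4 lists, against shares over all probe sets of 8.54% higher and 7.87% lower in the day 7 sort. Of 15 carriers and matrix partners tested at day 7, 4 were higher in Stella-positive cells and 0 lower, with a median of 0.44. Both subunits of the flavoprotein that brings electrons from fat oxidation to the chain were among them. Etfb measured 1858, 1823, 2506 and 1784 in Stella-positive and 530.4 and 613 in Stella-negative cells (1.77 ± 0.23, limma adjusted p = 0.000155). Etfa was higher by 1.46 ± 0.20 (adjusted p = 0.000246). Cyct, the testis form of cytochrome c, measured 209, 220.3, 169 and 222 in Stella-positive and 105 and 74.7 in Stella-negative cells (1.12 ± 0.30, adjusted p = 0.0191).

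Of 20 genes of the citric acid cycle and of pyruvate dehydrogenase, 6 were higher and 1 was lower, with a median of 0.42. Pdhb, a subunit of pyruvate dehydrogenase, was higher by 1.22 ± 0.22 (adjusted p = 0.00194), and Pdk4, a kinase that inhibits that enzyme, was lower, at -1.10 ± 0.37 (adjusted p = 0.0498). Of 31 assembly factors outside the members, 5 were higher and 0 lower, with a median of 0.08, among them Oxa1l, which inserts proteins into the inner membrane (0.93 ± 0.24, adjusted p = 0.016). Of 18 regulators of mitochondrial biogenesis and DNA, 3 were higher and 2 lower, with a median of 0.23. Tfam, which packages and transcribes mitochondrial DNA, was higher by 0.90 ± 0.24 (adjusted p = 0.0187), and Nrf1, the factor whose motif is shown above, by 0.72 ± 0.23 (adjusted p = 0.0403). Esrrb, a nuclear receptor of pluripotent cells, was higher by 1.13 ± 0.27 (adjusted p = 0.00919). The receptor Esrrg and the coactivator Ppargc1b, which drive oxidative metabolism in muscle and other tissues, were lower, at -1.51 ± 0.50 and -1.47 ± 0.49 (adjusted p = 0.0486 and 0.0489).

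In ESC, the sort on Stella was not accompanied by a detected difference in any member. Of the 163 members, 0 were higher and 0 lower, and 1 had an unadjusted limma p under 0.05. Over all 30023 probe sets, 0.00333% were higher (1 probe set, that of Dppa3) and 0% lower, and 834 had an unadjusted p under 0.05. The members' median was 0.04 and that of all probe sets -0.04, and under quantile normalization they were -0.04 and 0.01. The members with the smallest p in each complex were Ndufa4 (-0.31 ± 0.23), Sdhb (0.20 ± 0.18), Uqcrc1 (-0.29 ± 0.18), Cox4i1 (0.31 ± 0.18) and Atp5g3 (0.27 ± 0.18), each at an adjusted p of 1 as rounded. The arrays of the 2 sorts overlapped on most members: on 18 (11%) both Stella-positive arrays lay above all 3 Stella-negative ones and on 10 (6.13%) below, against 9.05% and 12.7% of all probe sets.

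The difference between the day 7 sort and the ESC sort was tested as an interaction. Of the 163 members, 3 were higher and 0 lower, where 0.536% and 0.213% of all probe sets were higher and lower, and 38 members and 4147 of all 30023 probe sets had an unadjusted p under 0.05. All 3 belong to complex I. Ndufb10 measured 889 and 631 in Stella-positive and 755, 719 and 1006 in Stella-negative ESC, and those groups overlapped. Its day 7 difference exceeded its ESC difference by 1.42 ± 0.30 (limma adjusted p = 0.0397). The value was 1.21 ± 0.27 for Ndufv1 (adjusted p = 0.0458) and 1.06 ± 0.23 for 1 of 3 tested probe sets of Ndufc2, a membrane arm subunit (adjusted p = 0.0447). Sdhc (0.94 ± 0.28, adjusted p = 0.12), Uqcrc1 (0.996 ± 0.25, adjusted p = 0.0742), Cox8a (0.76 ± 0.26, adjusted p = 0.177) and Atp5g1 (1.32 ± 0.39, adjusted p = 0.122) did not pass. The count of 3 was 0 with a replicate block, where 0.24% of all probe sets were higher, and with a constant prior variance (0.00999%). It was also 0 with median centring (0.0866%) and without the filter on dim probe sets (0.175%). Within hybridisation runs the medians were 0.27 for the members and -0.03 for all probe sets.

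Between ESC and day 7, members moved in both directions in both sorts. In Stella-negative cells, 27 members were higher at day 7 and 45 lower, where 18.5% and 15.0% of all probe sets were higher and lower, and the members' shares were 16.6% and 27.6%. The members' median was -0.05 and that of all probe sets 0.24. Median centring, which moved the median of all probe sets to -0.09, gave 6 higher (3.68%) and 62 lower (38%), against 9.79% and 20.5% of all probe sets. Of the calls, 8.82% were then higher in place of 37.5%, and the members' median was -0.38. Complex I had 11 members higher and 21 lower, complex II 1 and 4, complex III 3 and 3, complex IV 7 and 5, and complex V 5 and 12. On 69 members (42.3%) both day 7 arrays lay below all 3 ESC arrays and on 45 (27.6%) above, against 25.8% and 40.7% of all probe sets. The actin ratio as a covariate gave 3 higher (1.84%) and 11 lower (6.75%), against 5.51% and 4.45% of all probe sets. The Gapdh ratio gave 2 higher (1.23%) and 2 lower (1.23%), against 5.73% and 3.02%. The actin ratios of the day 7 and the ESC arrays did not overlap, so that culture and this ratio cannot be told apart.

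Several of the larger falls were in members with their lowest values in Stella-negative day 7 cells. Ndufa4l2, described below, fell further than these, and its lowest values were in Stella-positive day 7 cells. This comparison shares the 2 Stella-negative day 7 arrays with the day 7 sort, so that the 2 results are not independent. Ndufb10 measured 229.8 and 230.4 at day 7, against 755, 719 and 1006 in ESC (-1.78 ± 0.22, limma adjusted p = 2.05e-05). Uqcrc1 measured 679 and 781 at day 7, against 2122, 2322 and 1753 in ESC (-1.48 ± 0.18, adjusted p = 1.82e-05). In both, the day 7 arrays lay below every ESC array. Sdhc fell in both probe sets, at -1.07 ± 0.20 and -2.12 ± 0.20 (adjusted p = 0.00078 and 1.78e-06), and Sdha at -0.86 ± 0.22 (adjusted p = 0.0075). The 3 tested probe sets of Sdha ran from -0.86 to 0.39. Atp5g1 fell, at -1.45 ± 0.28 (adjusted p = 0.00105), while Atp5g2 at -0.50 ± 0.20 and Atp5g3 at 0.29 ± 0.18 did not pass (adjusted p = 0.0644 and 0.219). Ndufaf6 fell, at -2.35 ± 0.34 (adjusted p = 9.91e-05), Atp5b at -0.82 ± 0.19 (adjusted p = 0.00444) and Atp5e, the ε subunit, at -0.68 ± 0.21 (adjusted p = 0.0215).

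Other members rose in the same cells. Uqcrb, a subunit of complex III, measured 12838 and 13543 at day 7, against 4772, 4247 and 5130.4 in ESC (1.49 ± 0.20, limma adjusted p = 5.33e-05). That is its brightest probe set, and its other tested one stood at 0.002. Atp5k measured 3546 and 3625 at day 7, against 1487, 1321 and 2223 in ESC (1.13 ± 0.23, adjusted p = 0.00125). The lowest of the 3 tested probe sets of Atp5k stood at 0.24. Uqcrb and Atp5k are both small subunits. Atp5md, a further small subunit of the membrane part of complex V, measured 1517 and 1248 at day 7, against 454, 485 and 640.5 in ESC (1.38 ± 0.29, adjusted p = 0.00181). Cox6a2 measured 261 and 299 at day 7, against 53, 44.9 and 47.9 in ESC (2.30 ± 0.38, adjusted p = 0.000273). In the same cells 6 of 6 cardiac and muscle markers were higher than in ESC, as were 6 of 6 endoderm and 3 of 4 blood genes. None of these 3 lists had a gene called lower, and a link to Cox6a2 was not tested. The other rises named by the rule for named genes were smaller. They were 0.95 ± 0.23 for Uqcrc2, 0.85 ± 0.19 for Ndufv3, 0.81 ± 0.20 for Cox6b1, 0.76 ± 0.23 for Atp5mpl, 0.74 ± 0.18 for Cox5b and 0.73 ± 0.17 for Ndufa3. The other tested probe set of Uqcrc2 stood at -0.04, and the lowest of 5 of Cox5b at 0.10. Of the 2 probe sets of Cox6c, which has no isoform, the dimmer rose by 1.19 ± 0.19 (adjusted p = 0.000178) and the brighter stood at 0.02 ± 0.21 (adjusted p = 0.948). Cox7c was dim on all 13 arrays, at 41.6 to 105, and passed no test. Among the testis isoforms, Cox8c rose by 0.72 ± 0.22 (adjusted p = 0.0205) and Cox6b2 fell, at -1.02 ± 0.29 (adjusted p = 0.0126).

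In Stella-positive cells, 31 members were higher at day 7 than in ESC (19.0%) and 13 lower (7.98%), where 8.35% and 7.42% of all probe sets were higher and lower. The medians were 0.16 for the members and 0.16 for all probe sets. Median centring gave 11 higher (6.75%) and 16 lower (9.82%), against 3.88% and 9.48% of all probe sets. Of the calls, 40.7% were then higher in place of 70.5%, and the medians were -0.06 and -0.07. Complex I had 18 members higher and 7 lower, complex II 0 and 2, complex III 2 and 2, complex IV 7 and 0, and complex V 4 and 2. On 50 members (30.7%) all 4 day 7 arrays lay above both ESC arrays and on 30 (18.4%) below, against 22.1% and 15.6% of all probe sets. With the Gapdh ratio as a covariate, 3.07% of members and 2.26% of all probe sets were higher, and with the actin ratio 3.07% and 1.55%. Without Stella-positive ESC array 2, which leaves 1 array in that group, the medians were 0.08 for the members and 0.18 for all probe sets. Without array 1 they were 0.18 and 0.11. With either 3′ to 5′ ratio as a covariate, 5 members were higher and 0 lower. Of all probe sets, 1.11% were lower with the Gapdh ratio and 0.959% with the actin ratio.

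Ndufb11, an X-linked membrane arm subunit of complex I, measured 3174, 3253, 3685 and 3307 at day 7, against 1318 and 1082 in Stella-positive ESC. It was higher by 1.48 ± 0.17 (limma adjusted p = 7.53e-05), and in the Stella-negative cells by 0.91 ± 0.18 (adjusted p = 0.00112). The 3 tested probe sets of Ndufb11 ran from 0.03 to 1.48 in Stella-positive cells and from -0.41 to 1.12 in Stella-negative cells. Uqcrb was higher by 1.37 ± 0.19 (adjusted p = 0.000318), Atp5k by 1.24 ± 0.21 (adjusted p = 0.00133) and Cox5b, a subunit of complex IV on the matrix side, by 1.07 ± 0.17 (adjusted p = 0.000746). These probe sets rose at day 7 in the Stella-negative cells too. The lowest tested probe sets of Uqcrb, Atp5k and Cox5b stood at 0.21, 0.43 and 0.09 in Stella-positive cells. Ndufa2 and Ndufa13 are accessory subunits of complex I. Ndufa2 measured 1233, 1454, 1563 and 1580.3 at day 7, against 684 and 549.5 in ESC (1.23 ± 0.17, adjusted p = 0.000316), and Ndufa13 was higher by 1.13 ± 0.16 (adjusted p = 0.000381). Cox6a1 was higher by 1.02 ± 0.20 (adjusted p = 0.00283), Atp5h by 0.89 ± 0.22 (adjusted p = 0.0114) and Uqcrc2 by 0.82 ± 0.22 (adjusted p = 0.018). The other tested probe sets of Cox6a1, Atp5h and Uqcrc2 stood at -0.23, 0.15 and 0.27.

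The falls in Stella-positive cells were led by Ndufa4l2. It measured 49.7, 11.8, 65.2 and 7.17 at day 7, against 290.5 and 172 in Stella-positive ESC (-2.68 ± 0.50, adjusted p = 0.00233). In Stella-negative cells it measured 31.4 and 37.7 at day 7, against 378, 315 and 149 in ESC (-2.60 ± 0.53, adjusted p = 0.00147). It fell in both sorts. Sdhd fell in its brightest probe set, at -1.28 ± 0.24 (limma adjusted p = 0.00224), while its other tested one stood at 0.32. Uqcrfs1, the Rieske iron-sulfur protein of complex III, fell, at -0.82 ± 0.21 (adjusted p = 0.0152). In Stella-negative cells the same probe sets of Sdhd and Uqcrfs1 fell, at -1.45 ± 0.25 and -0.91 ± 0.22 (adjusted p = 0.000421 and 0.00542). The other Sdhd probe set rose there by 0.98.

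**Figure D3:**
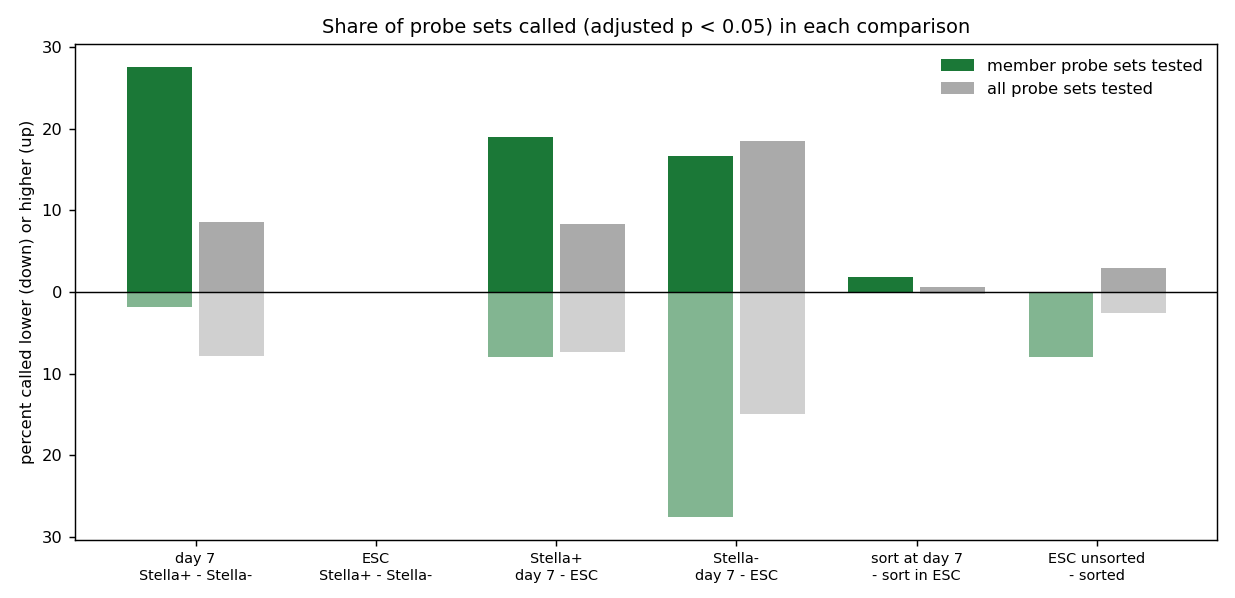
Percent of the 163 members (green) and of all 30023 probe sets (grey) that passed the limma test, higher drawn upwards and lower drawn downwards, for the 6 comparisons on the horizontal axis. In the day 7 sort 27.6% of members and 8.54% of all probe sets were higher, and in the ESC sort no member passed.

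Unsorted ESC were compared with the mean of both sorted ESC groups. Of the 163 members, 0 were higher and 13 lower (7.98%), where 2.94% and 2.58% of all probe sets were higher and lower (5.53% in all), and the members' median was -0.19 and that of all probe sets 0.08. Quantile normalization gave 5 higher (3.07%) and 15 lower (9.2%), against 2.56% and 2.33% of all probe sets. Of the calls, 25% were then higher in place of 0%. Leaving out an unsorted array leaves 1 in that group. Without unsorted array 1 the medians were -0.13 for the members and 0.07 for all probe sets, and without array 2 they were -0.19 and 0.09. Cox8a measured 1445 and 1316 in unsorted ESC, against 2243 and 2359 in Stella-positive and 2258, 1729 and 2575 in Stella-negative ESC. Both unsorted arrays lay below all 5 sorted ones, at -0.69 ± 0.17 (limma adjusted p = 0.0262), and the other tested probe set of Cox8a was lower as well (-0.93 ± 0.18, adjusted p = 0.00838). Ndufc1, a small subunit of complex I, measured 796 and 899.6 in unsorted ESC, against 1335 to 1479.9 in sorted ESC (-0.74 ± 0.16, adjusted p = 0.0126), and its other probe set was also lower. Ndufaf6 was lower, at -1.48 ± 0.32 (adjusted p = 0.0136) and Uqcr11 at -0.77 ± 0.19 (adjusted p = 0.0239). The summed signal of 4 fibroblast and feeder markers was 712 and 3239 in unsorted ESC, against 189 to 652 in Stella-positive and 416 to 496 in Stella-negative ESC, and 3 of the 4 were higher in unsorted ESC; their part in the result was not tested.

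Probe sets of 1 gene often disagreed. Of the 48 genes with more than 1 tested probe set, 27 (56.2%) had probe sets of opposite sign in the comparison of Stella-negative day 7 cells with ESC, and 23 (47.9%) in the day 7 sort, where 52.6% and 51.0% of all 6368 such genes did. The median gap between a gene's highest and lowest probe set was 0.86 in the culture comparison and 0.33 in the sort, against 1.14 and 0.75 over all such genes. In Stella-negative cells, 4 of the 48 genes were called in both directions, and the matching share over all 6368 such genes was not computed. For Sdhd, one probe set fell, at -1.45 ± 0.25 and the other rose by 0.98 ± 0.31 (adjusted p = 0.0229). For Ndufc2, Atp5a1 and Ndufab1 the probe sets likewise split, as with Atp5a1 at -0.64 ± 0.20 and 1.24 ± 0.38 (adjusted p = 0.0222 and 0.0181). All tested probe sets of Atp5h, Cox5a, Cox8a, Ndufb9, Ndufv1 and Sdhc were called higher in the day 7 sort. Of the 163 tested probe sets, 46 carry a suffix (_s_at or _x_at) that marks probes shared between transcripts or genes, and without them 32 of 117 were higher and 3 lower in the day 7 sort.

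**Figure D4:**
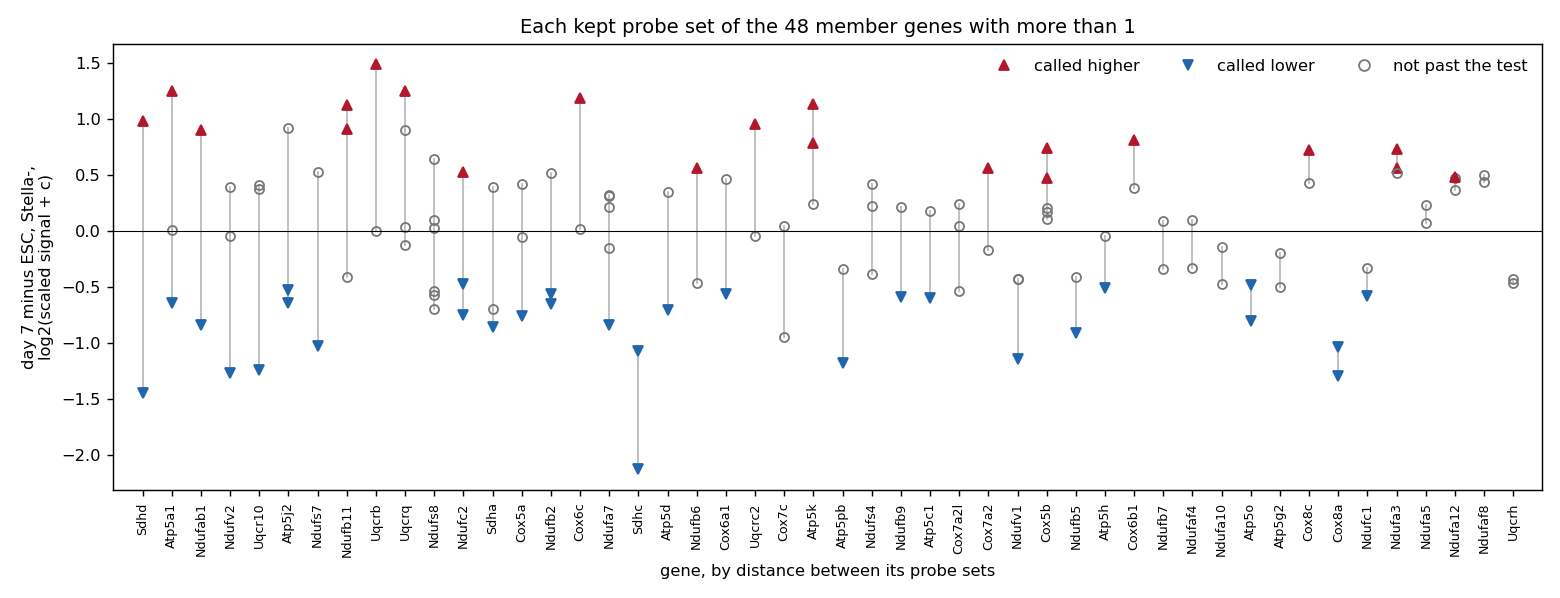
Log2 difference of Stella-negative day 7 cells minus Stella-negative ESC for every tested probe set of the 48 genes that have more than 1, with genes sorted by the gap between their probe sets. Red triangles pointing up were called higher, blue triangles pointing down lower, and open circles did not pass the limma test; Atp5a1, Ndufab1, Ndufc2 and Sdhd have both colours.

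Promoter windows of 300 bases were available from RefSeq for 74 of the 90 genes and for 27025 genes in all. The NRF1 core CGCANGCG was found, on either strand, in 27 of the 74 genes (36.5%) and in 9.22% of all genes. The ETS motif CCGGAAG, bound by the factor GABP among others, was in 19 (25.7%) and in 9.93% of all genes, and the YY1 motif AAGATGGC in 10 (13.5%) and in 3.19%. Complex V held the NRF1 core in 10 of 15 genes (66.7%), complex I in 11 of 39 (28.2%) and complex IV in 1 of 12 (8.33%). Matches of different motifs may overlap and were counted for each. These shares were not tested, and they depend on how each motif is spelled. A match says nothing of whether the factor binds there.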

How the data were processed

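RNA of 13 samples was measured on Affymetrix Mouse Genome 430 2.0 arrays, 1 per sample. The deposited values are linear MAS5 signal intensities, per the submitters' processing notes, whose version was not given. Groups came from the sample titles. Each array was multiplied to a common 2% trimmed mean of 105, a constant of 10.5 (0.1 of that mean) was added and log2 was taken. Probe sets above their own array's median on at least 2 arrays were kept, 30023 of 45037; 64 control probe sets were left out. The 5 group means were fitted in limma 3.58.1 (R 4.3.3) with a trended prior variance (prior df 8.88), 6 contrasts were drawn and p-values were adjusted by Benjamini-Hochberg over all kept probe sets. The fit was tested on simulated data. Of the probe sets, 34945 had 1 symbol, 932 several and 9160 none; 8 probe sets of several symbols that would have followed the rule were left out. A gene is represented by its brightest member probe set. Named were the Sdh subunits, isoform groups and c-ring genes, per contrast and complex up to 3 rises and 3 falls among calls (otherwise the smallest p), and genes whose probe sets disagreed in sign. Members and lists were chosen with earlier results of these data known. Promoter sequences come from RefSeq. The number of arrays limits the precision.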

Additional observations from a re-analysis of the deposited data

Results flagged for a closer look

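Among the 63 named results tested in the group of 4 Stella-positive day 7 arrays, array 4 stood far from the other 3 in 2 genes. Atp5c1, the γ subunit of ATP synthase, measured 1946 on array 4 and 2160.3 to 2196 on the others. Sdhb measured 1084 on array 4 and 1365 to 1408 on the others. Array 4 was also the dimmest of the 13 before scaling. Of all 163 tested members, 8 (4.91%) had such a far array, and chance flags about 5%.

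The sort difference was larger at day 7 than in ESC for 3 probe sets of complex I in limma's interaction test. It was larger by 1.42 for Ndufb10 (adjusted p = 0.0397), by 1.06 for Ndufc2 (adjusted p = 0.0447) and by 1.21 for Ndufv1 (adjusted p = 0.0458). Of these 3 calls, 0 were kept with median centring, with a constant prior variance or with the Gapdh ratio as a covariate.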

How the results depend on the processing

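The ESC sort gave 0 calls among members under every alternative run. For the other comparisons, counts of members are given as higher and lower, with the share over all probe sets in brackets. Where a fit leaves 1 array in a group, medians are given in place of counts. The shares over all probe sets moved with the setting as well. With a constant prior variance, 6.14% were higher in the day 7 sort, and 7.38% and 18.7% in the Stella-positive and Stella-negative culture comparisons. In the interaction, 1.99% were higher and 0.966% lower with array weights, 3.56% and 5.73% with the Gapdh ratio, and 2.61% and 2.5% with the actin ratio. With the Gapdh ratio, 0 of the 3 interaction calls were kept. Day 7 sort: 11 lower with quantile normalization, 27 higher with a constant prior variance, 15 and 1 within hybridisation runs, 17 higher with the Gapdh ratio, 5 lower without Stella-positive arrays 3 and 4, and 12 to 48 and 0 to 4 with 1 replicate left out. Day 7 against ESC in Stella-positive cells: 11 higher with median centring (3.88%), 18 and 7 with a constant prior variance (7.38% and 5.5%), 19 higher with the compared groups alone (4.62%), 5 and 0 with the Gapdh (2.26% and 1.11%) or the actin ratio (1.55% and 0.959%), and 19 higher without probe sets shared between transcripts (8.35%). With 1 day 7 replicate left out, 22 to 28 were higher (7.08 to 9.26%) and 10 to 12 lower (6.59 to 7.92%). With 1 ESC replicate left out, the medians were 0.08 to 0.18 for the members and 0.11 to 0.18 for all probe sets. In Stella-negative cells: 6 higher with median centring (9.79%), 17 higher with a constant prior variance (18.7%), 2 and 2 with the Gapdh ratio (5.73% and 3.02%), and 3 and 11 with the actin ratio (5.51% and 4.45%). With 1 ESC replicate left out, 17 to 24 were higher (12.7 to 14.4%) and 36 to 38 lower (11.9 to 12.7%). With 1 day 7 replicate left out, the medians were -0.11 to -0.08 for the members and 0.22 to 0.25 for all probe sets. Interaction: 6 higher with quantile normalization (1.27%) or without arrays 3 and 4 (1.04%), and 0 higher with median centring (0.0866%), no filter (0.175%) or a constant prior variance (0.00999%). The counts were 12 and 1 with array weights, 8 and 2 with the Gapdh ratio and 14 and 1 with the actin ratio. With 1 Stella-negative ESC or Stella-positive day 7 replicate left out, 0 to 7 were higher (0.0966 to 0.929%). With 1 replicate of the other groups left out, the medians were 0.22 to 0.27 for the members and -0.09 to -0.02 for all probe sets. Within runs they were 0.27 and -0.03. Unsorted against sorted ESC: higher members were 5 with quantile normalization (2.56%), 1 with a filter on all arrays of a group (3.97%), 2 with ESC groups alone (5.38%) and 3 with array weights (4.96%), the Gapdh ratio (5.19%) or the actin ratio (4.67%). With a constant prior variance, 4 were lower (0.756%). With 1 Stella-negative replicate left out, 0 to 1 were higher (1.87 to 2.45%) and 9 to 11 lower (1.5 to 2.23%). With 1 Stella-positive or unsorted replicate left out, the medians were -0.23 to -0.13 for the members and 0.07 to 0.09 for all probe sets. Same-numbered arrays did not deviate together (correlations of -0.13 to 0.07, 0 of 21 pairs above 0.1). This check cannot decide whether arrays were paired, because in a group of 2 arrays the deviations from the group mean mirror each other. With a replicate block the day 7 sort gave 39 and 2 (8.53% and 7.53%), and the interaction 0 (0.24% higher and 0.0966% lower). The Stella-positive culture comparison gave 24 and 8 (7.62% and 6.48%), the Stella-negative one 36 and 43 (22.4% and 16.8%), and the unsorted comparison 5 and 18 (4.92% and 4.1%). The numbers are those of the titles; the array headers number replicates in another order, which limits this check and the block. Among the genes named in the text, those that changed sign were Atp5g3 in the ESC sort (-0.024, quantile normalization), Cox7a1 (-0.76 with the Gapdh ratio, -0.62 with the actin ratio) and Atp5mpl (-0.088, actin ratio) in the Stella-positive culture comparison, and in the Stella-negative one, with the Gapdh ratio, Sdhd (0.27), Sdha (0.24), Uqcrfs1 (0.50), Cox6a2 (-0.12), Cox6b1 (-0.22), Atp5mpl (-0.78; -0.42 with the actin ratio) and Atp5b (0.15). Over all members, 16 of the 72 calls in the Stella-negative culture comparison changed sign with the Gapdh ratio and 5 with the actin ratio, 1 of the 44 in the Stella-positive one with the Gapdh ratio and 2 with the actin ratio, and 1 of the 48 in the day 7 sort with the Gapdh ratio. The cause of these changes was not tested.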
